A study of Rattus norvegicus with 22 samples.

Results

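The 6 earliest arrays of the series set cyclic stretch against no stretch with a slide in common. They were chosen by the name of the scanner file: 3 control arrays (replicates 1 to 3) and 3 stretch arrays (replicates 1 to 3), of 22 arrays in all. Slide 1 carried control replicate 1 and stretch replicate 1, and slides 2 and 3 carried the other pairs in the same way, so that each slide gave 1 stretch minus control difference. All tissues were engineered cardiac tissue, cells of the embryonic ventricle of Sprague Dawley rats (gestational day 14.5) cast with matrix into a cylinder that is held at both ends by anchors, and kept 7 days in a medium with serum and chicken embryo extract. The control tissues were held but not cycled. The stretch tissues were pulled along 1 axis at 0.5 Hz and 5% elongation from day 5. Neither early group had the p38 MAPK inhibitor BIRB796 (10 µM), which was given to groups of the later arrays used below for comparison. The series' title speaks of a tyrosine kinase, while the treatment protocol calls BIRB796 an inhibitor of p38 MAPK. The design text calls the replicates biological and ties none to a litter, cell preparation or culture, so all p-values here reflect sample-to-sample spread, which may be partly technical.

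Heart muscle cells read mechanical load through their anchors to the matrix and to one another, and load in the ventricle is known for raising the natriuretic peptides and other genes of the fetal programme. Stretched tissue also sheds growth factors of the EGF family, which act on neighbouring cells through the EGF receptor and on to the MAP kinases and the AP-1 transcription factors. Tissue cast from whole ventricles holds fibroblasts, endothelial, epicardial and blood-derived cells beside the muscle cells, and its RNA is a sum over all of them.

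Values are log2 signal minus the 75th percentile of the array, so that 0 is the level of a probe at that percentile and 1 unit is a doubling. Each gene is read by its brightest probe, and no level is set against that of another gene. Between 82.6% and 91.3% of the probes were well above background on the 6 arrays, and none was saturated. The number of arrays limits the precision. All 23 sarcomere genes with a probe were well above background on each of the 6 arrays, and so were 27 of 28 macrophage and leukocyte markers, 21 of 23 endothelial, 16 of 18 epicardial and mesothelial, 18 of 18 smooth muscle and pericyte and 18 of 19 fibroblast markers. Cd163, a scavenger receptor of macrophages, Sox17, an endothelial transcription factor, and Chga, a neuroendocrine granule protein, were not well above background on any of them.

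The first question is which genes differed between stretched and unstretched tissue when the arrays of a slide were compared. Of 23502 genes tested in limma with the slide as a block, 0 passed an adjusted p of 0.05 (0%), and the smallest adjusted p was 0.686. At an unadjusted p under 0.05, 628 genes were higher under stretch (2.67%) and 457 lower (1.94%), 1085 in all. This is less than the share of 0.05 expected at that threshold when no gene differs. Both percentages are the background for every count of list members at that threshold given below. Without slide 1 the higher and lower counts were 310 and 203, without slide 2 they were 566 and 944, and without slide 3 they were 1668 and 798. The share of higher genes among those of all 3 slides was 57.9%, against 40.3% with the array median and 37.1% with quantile normalization in place of the 75th percentile, so the balance of higher and lower genes was set by the scaling. The median difference over all genes was 0.08, and 63.1% of genes were above 0. The same direction on all 3 slides was found for 18.5% of genes on the higher side and 8.19% on the lower side, and control and stretch values did not overlap for 5.70% on the higher side and 3.43% on the lower side. Genes named below as higher or lower are therefore described by their values on each slide, and none of them passed the adjusted test on all 6 arrays.

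A small set of genes differed by at least 1 log2 unit in the same direction on each of the 3 slides: 10 were higher under stretch (0.0425% of genes tested) and 15 lower (0.0638%). Of the 10 higher genes, 2 were not well above background on any control array and passed the filter only through the stretch arrays: Vom1r34 and a probe without a gene name. Among the higher ones were Vom1r34, Areg, Cdhr1, C9h6orf141, Nsg1, Fosl1, Cldn23 and Ptgs2. The lower ones were Fgf8, Galnt14, Mybpc1, Nxph1, Sfrp2, P2rx2, Nrxn2, Prph, Lrp2, Gpm6a, F3, Ptprz1 and Hmcn1. Lrp2, an endocytic receptor, was outside the rule for naming genes and is listed after its values were seen. Of the 25, 3 have only probe or transcript identifiers.

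**Figure D1:**
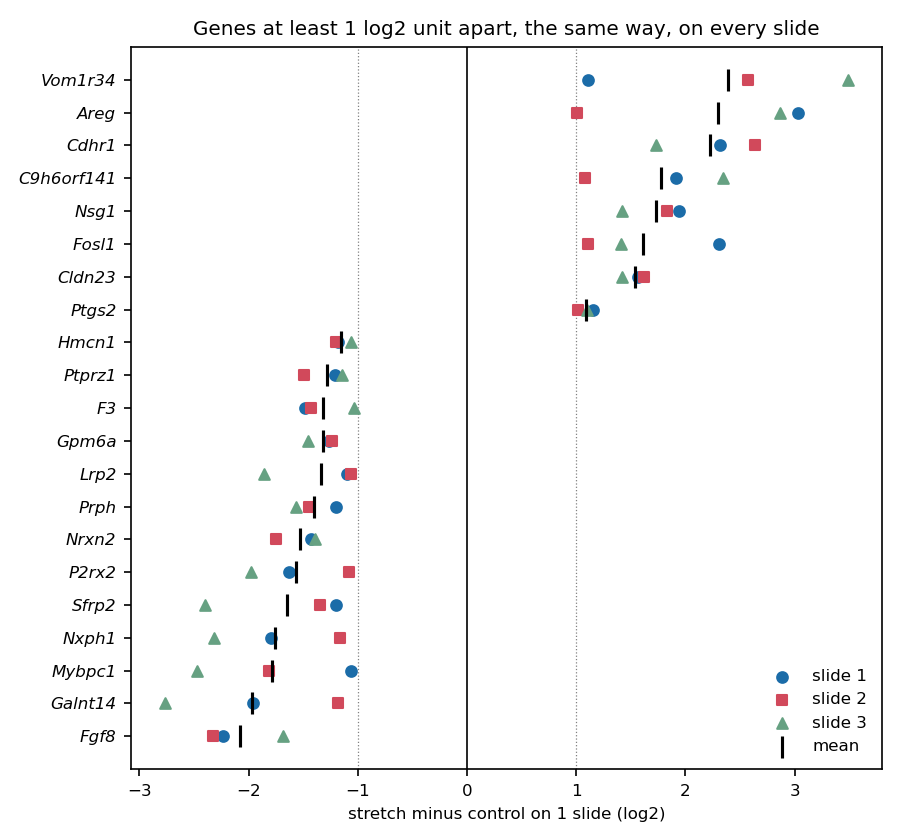
Stretch minus control (log2, horizontal axis) on slide 1 (circles), slide 2 (squares) and slide 3 (triangles), with the mean as a black bar, for 21 of the 25 genes that differed by at least 1 unit the same way on every slide; dotted lines mark 1 unit. The slides lie close together for Ptgs2 (1.16, 1.01 and 1.1) and far apart for Areg (3.03, 1.01 and 2.87).

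Cdhr1, a cadherin-related protein best known from photoreceptors, stood at -1.60, -2.47 and -2.47 in the controls and at 0.72, 0.17 and -0.74 under stretch. The groups did not overlap, and the difference over the 3 slides was 2.23 ± 0.23 (SE), 4.69-fold (limma, adjusted p = 0.686). Nsg1, an endosomal protein of neurons, stood at -2.79, -3.18 and -3.68 against -0.85, -1.35 and -2.26, again with no overlap, a difference of 1.73 ± 0.20. Cldn23, a tight junction claudin, shows what the slide pairing does: its controls ran from -4.03 to -2.06 and its stretch arrays from -2.61 to -0.49, so the groups overlapped, while the slide differences were 1.57, 1.62 and 1.42. Ptgs2, the inducible cyclooxygenase, behaved alike, with controls at -4.94, -4.76 and -5.88, stretch arrays at -3.79, -3.75 and -4.78, and a difference of 1.09 ± 0.18. C9h6orf141, an open reading frame without a named function, gave 1.91, 1.08 and 2.34 on the 3 slides, a mean of 1.78, while its other probe gave 0.72. Il1rl1, the receptor of interleukin-33, gave 2.02, 2.77 and 0.93, just short of 1 unit on slide 3, and its other probe gave a mean of 0.34 against 1.9.

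For a pair of very dim probes the difference has only a bound. Vom1r34, a vomeronasal receptor gene, and Gnat2, the cone transducin subunit, were not well above background on any control array and were above it on all 3 stretch arrays, through which alone they passed the filter. Against the lowest measurable signal of the control arrays, Vom1r34 was at least 2.91-fold and Gnat2 at least 3.27-fold higher under stretch. These bounds set the mean of the stretch arrays against the mean, per control array, of the higher of the probe's own value and the lowest value among probes above background.

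Fgf8, a secreted fibroblast growth factor of the early heart field, led the lower genes. Its control values were -4.37, -3.54 and -2.77 and its stretch values -6.60, -5.86 and -4.46. No stretch array reached a control array, and the difference was -2.08 ± 0.21, a 4.23-fold lower signal (limma, adjusted p = 0.686). Galnt14, a glycosyltransferase of the Golgi, stood at -2.79, -2.82 and -1.65 in the controls and at -4.75, -4.0 and -4.41 under stretch, a difference of -1.97 ± 0.32. Sfrp2, a secreted Wnt antagonist, stood at -0.80, -0.81 and -0.14 against -2.0, -2.16 and -2.54, without overlap, a difference of -1.65 ± 0.28.

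Several of the lower genes are known from neurons or glia. Nxph1, a ligand of neurexins, differed by -1.79, -1.16 and -2.32 on the 3 slides, a mean of -1.76, while its other probe gave -0.82. Nrxn2, a neurexin, gave -1.43, -1.75 and -1.39, a mean of -1.52, while its other probes gave -0.52 and -0.19. The ATP-gated channel P2rx2 gave -1.63, -1.08 and -1.98. The intermediate filament Prph, of peripheral neurons, gave -1.20, -1.45 and -1.57. Ptprz1, a receptor phosphatase of glia, gave -1.21, -1.49 and -1.15, with overlapping groups. The list of neural and glial markers as a whole did not share this direction: of its 20 tested genes, 16 were above 0 and 4 below, with a median of 0.14 against 0.08 for all genes, and 1 member passed an unadjusted p of 0.05 on each side. Its summed level, on a linear scale where 1 is the 75th percentile of an array, was 5.42 to 6.14 in the controls and 4.67 to 7.44 under stretch.

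The remaining lower genes cover other functions. Mybpc1, the slow skeletal form of myosin-binding protein C, gave -1.07, -1.81 and -2.47 on slides 1 to 3. F3, tissue factor, the cell-surface trigger of clotting, stood at 0.62, 0.92 and 1.34 in the controls and at -0.86, -0.51 and 0.31 under stretch, every stretch array below every control array. Gpm6a, a membrane glycoprotein that the mesothelium also carries, gave -1.26, -1.23 and -1.46, and the extracellular matrix protein Hmcn1 gave -1.18, -1.20 and -1.07. Lpl, lipoprotein lipase, which frees fatty acids for the heart, stood at 0.81, 1.21 and 1.47 against -0.72, 0.29 and -0.40, a difference of -1.44 ± 0.24, with slide 2 (-0.93) short of 1 unit.

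Of the EGF family, 3 ligands were higher under stretch on all slides and the receptor Egfr was lower. Amphiregulin (Areg) stood at -2.81, -2.54 and -3.30 in the controls and at 0.22, -1.53 and -0.44 under stretch. All stretch arrays were above all controls, and stretch replicate 2 was the lowest of them. The difference was 2.30 ± 0.42, 4.94-fold (limma, adjusted p = 0.868). Epiregulin (Ereg) gave 1.91, 0.78 and 1.49 on the 3 slides and heparin-binding EGF (Hbegf) 0.98, 0.26 and 1.20, both without overlap between the groups. For these 3 ligands slide 2 gave the smallest difference of the 3 slides.

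Their receptor Egfr stood at 1.12, 1.1 and 1.26 in the controls and at 0.13, 0.86 and 0.0030 under stretch, a difference of -0.83 ± 0.25, again with slide 2 the smallest (-0.24). Erbb4, a neuregulin receptor that is outside the naming rule and is given after its values were seen, gave 0.41, 0.27 and 0.91. It was well above background on only 2 of the 3 control arrays. The ligand Egf gave -0.03, -0.45 and -0.18. Of the 14 tested genes of the EGF list, 4 were higher and 1 lower at an unadjusted p under 0.05, against 2.67% and 1.94% of all genes. Its median was 0.17.

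Among immediate early genes, the AP-1 subunit Fosl1 (Fra-1) and the subunit Fos lay on opposite sides. Fosl1 stood at -3.99, -3.79 and -3.55 in the controls and at -1.68, -2.68 and -2.14 under stretch, a difference of 1.61 ± 0.27 with no overlap (limma, adjusted p = 0.868). Fos stood at -1.58, -2.21 and -1.67 against -2.63, -2.25 and -2.33. Its groups did not overlap either, but slide 2 contributed only -0.04 to the difference of -0.58 ± 0.24. Egr1, an early zinc finger factor, gave -0.43, -0.22 and -0.79. Of 22 tested members of this list, Fosl1 alone had an unadjusted p under 0.05, and 16 were above 0.

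**Figure D2:**
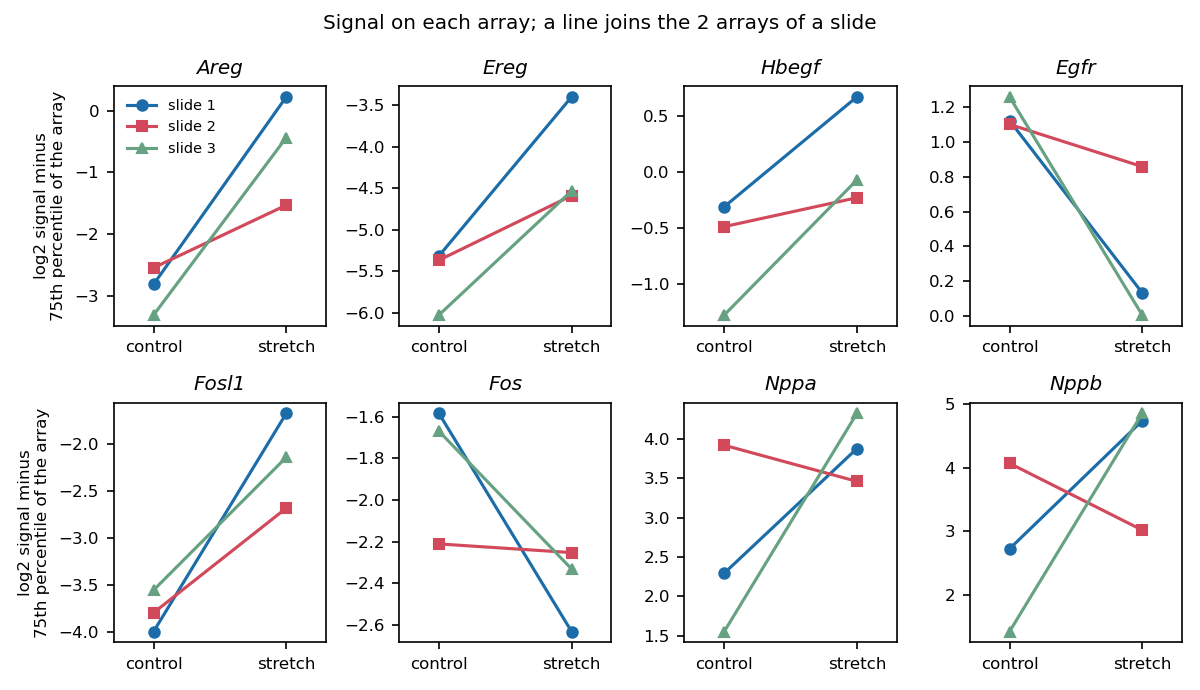
Log2 signal minus the 75th percentile of the array (vertical axis, a separate scale in each panel) on the control and stretch array of each slide, joined by a line, for 3 EGF ligands, their receptor, 2 AP-1 subunits and 2 natriuretic peptides. The lines of Areg, Ereg, Hbegf and Fosl1 slope up on all 3 slides and those of Egfr and Fos slope down, while for Nppa and Nppb slide 2 runs against slides 1 and 3.

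The natriuretic peptides, secreted by loaded heart muscle, were higher under stretch on slides 1 and 3 and lower on slide 2. Nppb (BNP) stood at 2.73, 4.07 and 1.43 in the controls and at 4.74, 3.02 and 4.85 under stretch. Control replicate 2 was the highest control and stretch replicate 2 the lowest stretch array, so the groups overlapped, and the difference of 1.46 ± 0.79 had a 95% interval from -0.48 to 3.41. Nppa (ANP) stood at 2.29, 3.92 and 1.55 against 3.88, 3.46 and 4.33, with the same order on slide 2, and differed by 1.3 ± 0.58. Both values depended on the slides used. Without slide 2, Nppb was 2.72 ± 0.38 (limma, adjusted p = 0.0058) and Nppa 2.18 ± 0.36 (adjusted p = 0.020) higher, on 4 arrays. Without slide 3 the difference was 0.48 ± 0.67 for Nppb (limma, adjusted p = 0.76) and 0.56 ± 0.47 for Nppa (adjusted p = 0.61). Without slide 1 it was 1.19 ± 0.91 and 1.16 ± 0.69 (limma, adjusted p = 1.0 for both).

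Other load-responsive genes varied between slides as well. Tnc, tenascin C, a matrix protein laid down in strained tissue, gave 1.59, 1.32 and 0.71, a difference of 1.21 ± 0.23, although stretch replicate 3 (-1.06) was below control replicates 1 (-0.92) and 2 (-1.04). Xirp2, an actin-binding protein of the intercalated disc, stood at -1.19, -1.24 and -3.32 in the controls and at 0.16, -0.90 and -0.46 under stretch, with no overlap and a difference of 1.52 ± 0.46. Ankrd1, a titin-associated stress protein, gave 0.57, -0.57 and 1.87, and the skeletal actin Acta1 gave 0.55, -0.88 and 1.73, both with overlap. Of the 27 tested genes of the cardiac load list, 21 were above 0, where 63.1% of all genes were above 0. Of these 27, 3 were higher and 0 lower at an unadjusted p under 0.05 (limma; 0 after adjustment), and the median was 0.29. The list's slide medians were 0.14, -0.23 and 0.64.

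The contractile genes of the sarcomere list had a median of 0.25, against 0.08 for all genes. Of its 23 tested genes 19 were above 0, where 63.1% of all genes were. At an unadjusted p under 0.05, 0 were higher and 1 lower (limma, 0 after adjustment), and 0 were higher on all 3 slides. The myosin heavy chain Myh6 stood at 7.72, 7.95 and 7.31 in the controls and at 7.76, 7.48 and 7.92 under stretch, a difference of 0.06 ± 0.25 (95% interval -0.56 to 0.68). Myh7, the other cardiac heavy chain, differed by 0.23 ± 0.25, troponin T (Tnnt2) by 0.25 ± 0.24, cardiac actin (Actc1) by 0.14 ± 0.22 and the calcium pump Atp2a2 by 0.10 ± 0.31. All of these groups overlapped, and Myh6, Myh7 and Atp2a2 turned negative when slide 3 was left out, at -0.21, -0.06 and -0.33. The gap junction protein Gja1 differed by 0.59 ± 0.34. Myl7, the atrial light chain, was lower on each slide (-0.48, -0.62 and -0.29).

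Growth factor genes outside the EGF family lay on both sides. Inhba, the subunit of activin A, stood at 3.24, 2.32 and 2.01 in the controls and at 4.12, 3.88 and 3.07 under stretch, a difference of 1.17 ± 0.21 with overlapping groups. Id2, a target of BMP signalling, gave -0.72, -0.67 and -0.46, and the ligand Bmp6 gave -0.51, -0.41 and -1.14. In the list of 28 TGF-beta, activin and BMP genes, 5 were higher and 4 lower at an unadjusted p under 0.05. Of all genes, 2.67% were higher and 1.94% lower there. The list's median was -0.09. On all slides 6 of the 28 were higher and 7 lower, against 18.5% and 8.19% of all genes.

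In the Wnt list of 28 genes, 2 were higher and 7 lower at that threshold, against 2.67% and 1.94% of all genes. Rspo1, a secreted amplifier of Wnt signals, gave -0.68, -1.06 and -0.90, and the Wnt-binding protein Sfrp4 gave 1.03, 1.24 and 0.24, the opposite direction to its relative Sfrp2. The Wnt list's median was -0.0075. The kinases that BIRB796 targets differed little: Mapk14 (p38 alpha) by 0.03 ± 0.18 and Mapk11 (p38 beta) by 0.25 ± 0.22. The other probe of Mapk11 gave 0.14. Of 24 tested genes of the p38 pathway list 1 was higher and 0 lower at an unadjusted p under 0.05 in limma (0 after adjustment).

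Plaur, the urokinase receptor, stood at -1.72, -2.03 and -1.98 in the controls and at -0.59, -0.91 and -1.37 under stretch, without overlap, a difference of 0.95 ± 0.20. Serpinb2, an inhibitor of plasminogen activators, gave 0.90, 0.66 and 1.67, and the proteoglycan-cleaving protease Adamts5 gave -0.99, -0.71 and -0.38. Srxn1, which restores oxidised peroxiredoxins, stood at 0.33, 0.71 and 0.43 against 2.14, 1.24 and 2.24, a difference of 1.38 ± 0.30. Malic enzyme Me1 gave 0.64, 0.57 and 0.75, a mean of 0.65, while its other probe gave 0.35. In the list of 31 NRF2 targets, the antioxidant genes, 26 were above 0, 6 were higher and 0 lower at an unadjusted p under 0.05, and 9 were higher without overlap (29.0% of the list, against 5.70% of all genes). The list's median was 0.24, with 0.33, -0.13 and 0.43 on slides 1 to 3.

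Of 27 tested heat shock genes, 20 were above 0, with 3 higher and 0 lower at an unadjusted p under 0.05 (limma; 0 after adjustment) and a median of 0.27. Among all genes, 63.1% were above 0, and 2.67% were higher and 1.94% lower at that threshold. The slide medians of the heat shock list were 0.15, -0.07 and 0.66. Hspa1b, the inducible HSP70, gave 0.89, 0.59 and 1.69, and its co-chaperone Dnajb4 gave 0.79, 0.22 and 1.36, both without overlap.

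Some of these promoters are shown because they hold letters bound by AP-1 or by NRF2, factors whose subunits or targets are described above. The 250 bases before the gene start were searched on both strands in the RefSeq promoter table (build GRCr8), which held 56 of the 75 genes discussed here. The AP-1 letters TGANTCA were present in 6.34% of all 33469 promoters and in 7 of these genes: Xirp2, Srxn1, Plaur, Serpinb2, Me1, Gja1 and Mylk. The core of the antioxidant response element, TGACNNNGC, was present in 10.1% of promoters and in 4 of the genes, Fosl1, Nsg1, Il1rl1 and Me1; in Me1 it overlaps the AP-1 letters. GGAATG, the TEAD letters, was present in 12.1% and in 7 genes, Nppb, Acta1, Myh6, Tnnt2, C1r, Lrrn4 and Mylk, and the heat shock element in 0.66% and in 0 of the genes. The promoters of Gja1 and Me1, also higher, and of Mylk, which was lower (-1.06), hold the AP-1 letters and are not printed. Capitals mark the letters found, within 40 bases on each side.
Xirp2 (AP-1, chr3:72534039-72534125, plus strand): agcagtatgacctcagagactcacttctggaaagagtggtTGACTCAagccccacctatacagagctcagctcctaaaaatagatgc
Srxn1 (AP-1, chr3:161064710-161064796, plus strand): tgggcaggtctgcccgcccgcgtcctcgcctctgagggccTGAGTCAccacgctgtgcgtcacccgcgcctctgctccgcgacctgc
Plaur (AP-1, chr1:89181240-89181326, plus strand): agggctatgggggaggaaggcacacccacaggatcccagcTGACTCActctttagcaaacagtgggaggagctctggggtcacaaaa
Serpinb2 (AP-1, chr13:24055792-24055878, plus strand): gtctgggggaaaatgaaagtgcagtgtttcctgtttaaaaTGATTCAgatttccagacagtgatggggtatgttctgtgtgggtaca
Fosl1 (antioxidant response element core, chr1:212183757-212183845, plus strand): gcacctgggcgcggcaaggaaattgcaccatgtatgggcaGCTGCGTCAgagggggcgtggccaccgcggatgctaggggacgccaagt
Nsg1 (antioxidant response element core, chr14:76860867-76860955, plus strand): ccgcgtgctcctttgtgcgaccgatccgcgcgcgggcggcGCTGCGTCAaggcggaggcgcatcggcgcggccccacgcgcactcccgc
Fosl1 and Nsg1 share the same 9 letters, read here on the strand opposite to the searched form. The AP-1 letters begin 62 bases before the start of Srxn1, 83 before Plaur and 189 before Serpinb2. These matches describe the sequences and are no measure of binding.

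The macrophage, endothelial and epicardial lists had medians below 0. Above 0 were 16 of 20 neural and 10 of 17 erythroid markers, against 63.1% of all genes. The erythroid median of 0.02 was below the 0.08 of all genes, so that list was not shifted upward. In bulk tissue, fewer cells of a type and less RNA per cell cannot be told apart. Of 27 tested macrophage and leukocyte markers, 25 were below 0 and 5 were lower at an unadjusted p under 0.05 (against 1.94% of all genes). The median was -0.61, but the slide medians were -0.70, 0.36 and -1.66. The list's summed level was 186, 93.3 and 253 in the controls and 108, 153 and 78.5 under stretch: control replicate 2 was the lowest control and stretch replicate 2 the highest stretch array. Of the 27, 5 were lower on all slides and 0 higher on all slides, against 8.19% and 18.5% of all genes. Mrc1, the macrophage mannose receptor, stood at -1.3, -1.59 and -0.89 in the controls and -3.0, -2.37 and -2.81 under stretch, a difference of -1.46 ± 0.27. Cd14, the lipopolysaccharide co-receptor, gave -0.66, -0.79 and -1.0.

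The inflammatory genes were split. Il1b, interleukin-1 beta, stood at -0.45, -0.75 and -0.03 against -1.74, -1.35 and -1.32, all stretch arrays lower, and the chemokine Ccl3 gave -1.81, -0.49 and -1.45, while Ptgs2 of the same list was higher. Of 29 tested cytokine genes, 3 were higher and 6 lower at an unadjusted p under 0.05, against 2.67% and 1.94% of all genes. In the list of 19 complement and acute phase genes, 0 were higher and 4 lower at that threshold in limma (0 after adjustment), with a median of -0.40. The complement protease C1r gave -1.18, -0.45 and -1.05, and the lipopolysaccharide-binding protein Lbp gave -0.70, -0.68 and -1.72. The slide medians were -0.13, 0.29 and -0.94 for the cytokine list and -0.51, 0.36 and -1.05 for the complement list, beside -0.70, 0.36 and -1.66 for the macrophage markers. Il1b, Ccl3, C1r and Lbp were below 0 on slide 2 too. They were named for the smallest p among the lower members of their lists. That choice favours genes with the same sign on every slide, so their slide 2 values cannot be set against the list medians. The part of the macrophage markers in the result was not tested.

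Of 22 tested endothelial markers, 17 were below 0, with a median of -0.33. At an unadjusted p under 0.05, 0 were higher and 5 lower, against 2.67% and 1.94% of all genes. Npr3, the natriuretic peptide clearance receptor of the endocardium, stood at -2.12, -1.40 and -1.29 in the controls and at -2.97, -2.79 and -2.65 under stretch, without overlap, a difference of -1.20 ± 0.20. Tek, the angiopoietin receptor, gave -1.48, -1.26 and -0.23, and was well above background on only 2 of the 3 stretch arrays. The summed endothelial level was 15.8 to 18.8 in the controls and 10.6 to 14.5 under stretch, groups that did not overlap. The list's slide medians were -0.30, 0.07 and -0.74, so the median was not below 0 on slide 2.

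Epicardial and mesothelial markers had a median of -0.43 over 18 genes, and 16 of them were below 0. In this list 1 was higher and 4 lower at an unadjusted p under 0.05, against 2.67% and 1.94% of all genes. Unlike the macrophage list, this one had no slide median above 0 (-0.46, -0.82 and -0.03), but that of slide 3 was close to 0. Lrrn4, a mesothelial surface protein, gave -0.82, -0.96 and -0.74, while the keratin Krt18 gave 0.47, 0.61 and 1.59. The summed level was 24.5 to 37.1 in the controls and 20.1 to 44.0 under stretch, which overlapped. It was lower under stretch on slides 1 and 2 and higher on slide 3 (33.4 in the control, 44.0 under stretch).

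Smooth muscle and pericyte markers had a median of 0.36, which was 0.055 without slide 2, with 13 of 18 genes above 0. Of the 18, 3 were higher and 1 lower at an unadjusted p under 0.05, against 2.67% and 1.94% of all genes. Calponin (Cnn1) gave 1.0, 0.98 and 0.71, but the myosin light chain kinase Mylk gave -0.78, -0.17 and -2.21. The list's slide medians were 0.37, 0.77 and -0.31. For the fibroblast list (19 genes) the median was -0.14, with 0 higher and 2 lower at that threshold (limma; 0 after adjustment). The list's collagen Col1a1 differed by 0.03 ± 0.19, a sign that turned under array median scaling (-0.02) and in the mean over its probes (-0.22). The matrix protein Postn differed by 0.21 ± 0.20.

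Over the whole transcriptome the slides had little in common. The correlation of the stretch minus control differences over 23502 genes was 0.20 between slides 1 and 2, 0.08 between slides 1 and 3 and -0.22 between slides 2 and 3. These correlations are across genes, which are not independent, and the 2 values of a gene share no array. The SD of the differences was 0.52, 0.40 and 0.60 on slides 1 to 3. Between arrays, the spread was an SD estimated from the median absolute deviation, over spots of probes well above background on every array. It is not the same measure as the SD over genes. Stretch replicate 3 differed from stretch replicates 1 and 2 with a median-based SD of 0.55 and 0.54, against 0.29 between replicates 1 and 2. Between control arrays that SD was 0.23 to 0.39. At 1 unit or more, slide 1 had 1283 genes, slide 2 had 545 and slide 3 had 1968. Slides 1 and 3 shared 214 of these in the same direction (16.7% of slide 1 and 10.9% of slide 3), while 134 genes were past 1 unit in opposite directions on slides 2 and 3 against 48 in the same direction.

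**Figure D3:**
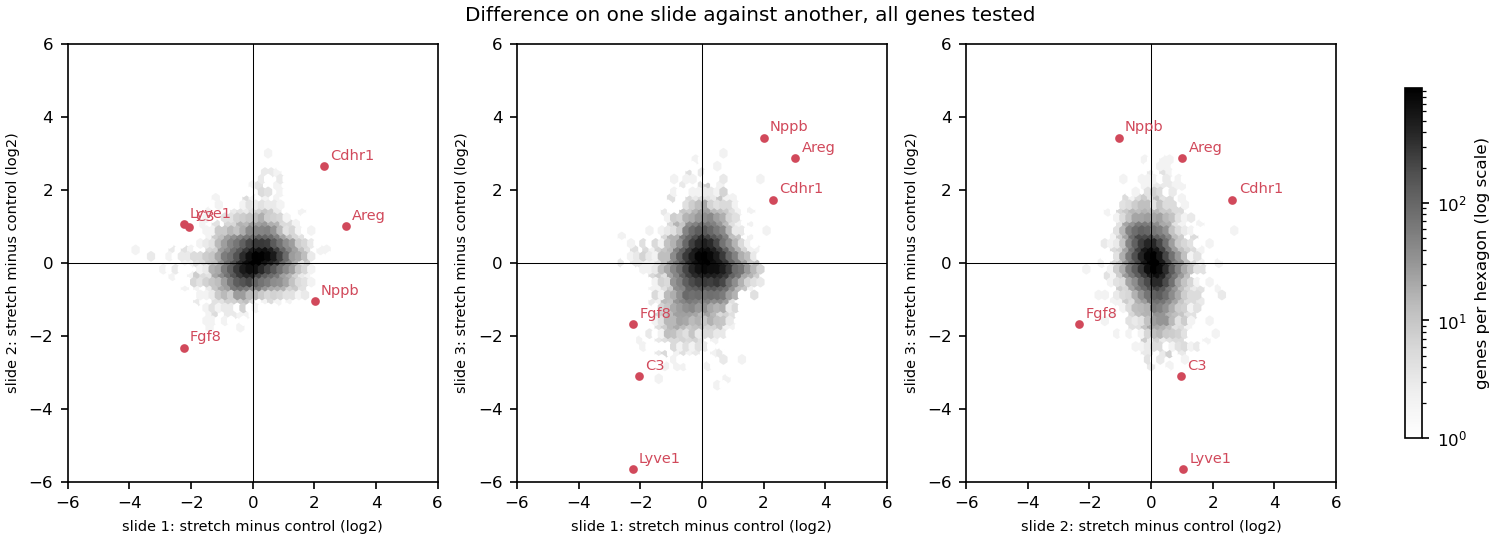
Stretch minus control (log2) of each of 23502 genes on one slide (horizontal axis) against another (vertical axis); darker hexagons hold more genes on a log scale, and 6 genes are marked. Cdhr1, Areg and Fgf8 keep their sign in all panels, while Nppb, Lyve1 and C3 change sign on slide 2.

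List medians differed most between slides in muscle and macrophage genes. The 23 tested sarcomere genes had slide medians of 0.06, -0.47 and 1.35, against 0.12, 0.08 and -0.002 over all genes. Control replicate 3 was the lowest array by the mean of the list (4.17) and stretch replicate 3 the highest (5.28). Respiratory chain genes gave -0.04, -0.43 and 0.83, above 0 on slide 3 alone. Of the 36 lists, 7 had medians of the same sign on all slides and 16 had slide 2 opposite to both other slides. In 13 lists slides 1 and 3 had opposite signs. Lyve1, a hyaluronan receptor of lymphatic endothelium and resident macrophages, stood at -0.04, -2.43 and 1.58 in the controls and at -2.28, -1.38 and -4.08 under stretch, so that its difference ran from -5.66 on slide 3 to 1.05 on slide 2. Complement C3 gave -2.06, 0.98 and -3.11, and the quinone reductase Nqo1, an NRF2 target, gave 1.25, -0.22 and 2.78. These 3 genes were picked after their values were seen.

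**Figure D4:**
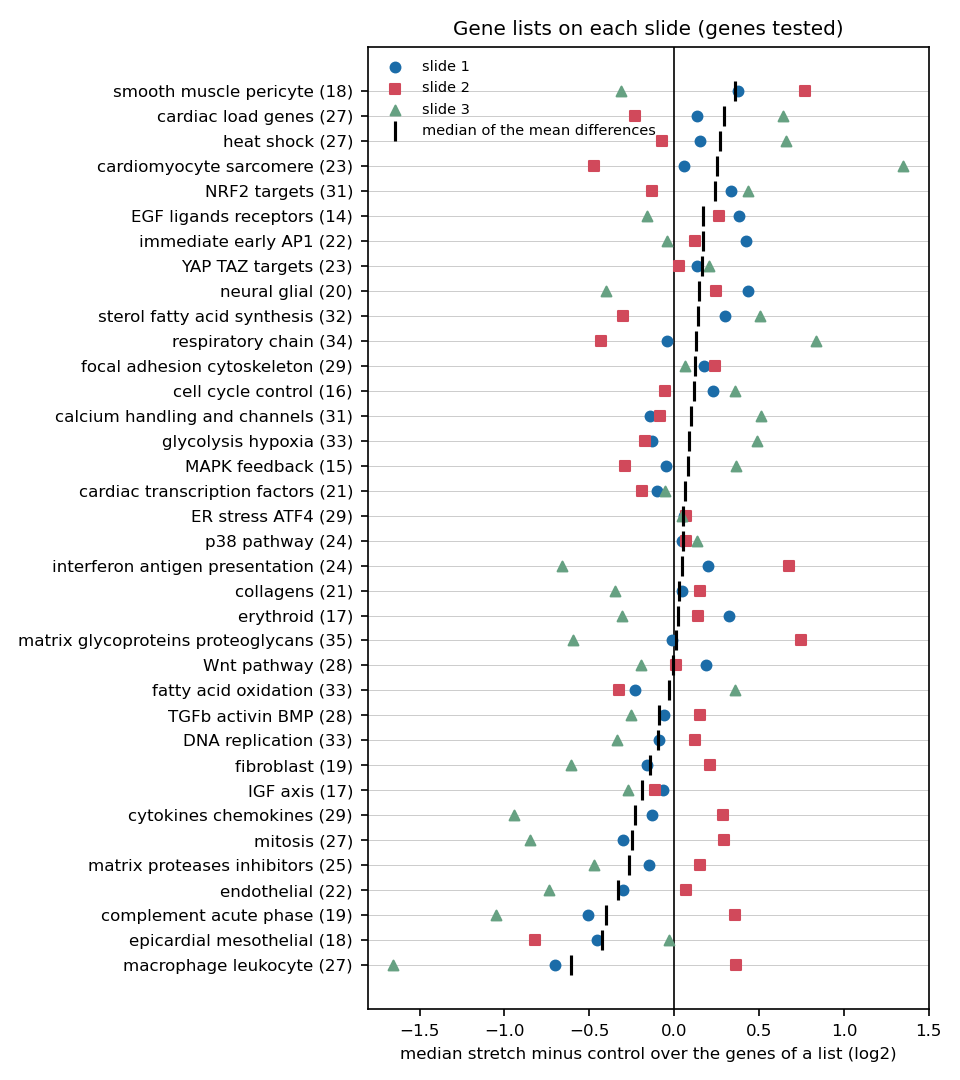
Median stretch minus control (log2, horizontal axis) over the tested genes of each of 36 lists on slide 1 (circles), slide 2 (squares) and slide 3 (triangles), with the median of the mean differences as a black bar; numbers in brackets are genes tested. Macrophage and sarcomere lists spread most between slides, and slide 2 lies across 0 from the other slides in 16 lists.

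Of the 21 alternatives tried, leaving out slide 2 was the sole one that gave calls. On the 4 arrays of slides 1 and 3, 65 genes passed an adjusted p of 0.05 in limma (0.277%), 18 higher and 47 lower. They included 11 of the 25 genes past 1 unit on every slide, and 31 of the 65 had the same sign on slide 2. Areg was 2.95 ± 0.33 higher (adjusted p = 0.0021), Srxn1 1.81 ± 0.33 (adjusted p = 0.033), Fosl1 1.86 ± 0.35 (adjusted p = 0.037) and Ereg 1.70 ± 0.33 (adjusted p = 0.045). On the lower side Lyve1 was at -3.95 ± 0.55 (adjusted p = 0.0058), C3 at -2.58 ± 0.36 (adjusted p = 0.0058), Mrc1 at -1.81 ± 0.33 (adjusted p = 0.033) and Lpl at -1.70 ± 0.33 (adjusted p = 0.045). Without slide 1 or without slide 3, 0 genes passed. This choice of slides follows their values and is a description of 2 slides.

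The later arrays of the same groups allow the genes past 1 unit on every slide to be read in tissues that took no part in choosing them. The later set held 4 control and 4 stretch arrays, in which stretch replicates 4 and 5 differed by less than the noise within an array and were counted as 1 sample. Later stretch replicate 7 stood apart from the other later stretch arrays. Its log2 values differed from theirs with a median-based SD of 1.07 to 1.09 over spots, against at most 0.43 among the others. Its 75th percentile signal was 510 against 1140 to 1429, and 65.5% of its probes were well above background against 71.2% to 73.1%. All later stretch arrays were scanned in another session than the later controls, so stretch and session cannot be told apart there. Of the 10 higher genes, 10 were above 0 in the later arrays, where 13578 of 23312 genes were above 0, and 5 were called at an adjusted p under 0.05, where 10.1% of all genes were called in either direction. Of the 15 lower genes, 15 were below 0 and 2 were called. The medians were 2.43 and -1.5, against 0.14 for all genes. Without stretch replicate 7, 10 of the 10 higher genes were above 0 and 5 were called, and 14 of the 15 lower genes were below 0 and 1 was called, where 9.04% of all genes were called. The medians were then 1.99 and -0.79, against 0.054 for all genes, and Nxph1 was at 0.40 ± 0.34.

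Side by side, Areg was 2.30 ± 0.42 higher in the early and 3.88 ± 0.70 in the later arrays, Fosl1 1.61 ± 0.27 and 4.25 ± 0.85, and Ptgs2 1.09 ± 0.18 and 3.28 ± 0.71. Cdhr1 was 2.23 ± 0.23 and 3.89 ± 0.49 higher. Among the lower genes, Fgf8 was at -2.08 ± 0.21 and -1.68 ± 0.95, Sfrp2 at -1.65 ± 0.28 and -1.21 ± 0.71, and P2rx2 at -1.56 ± 0.23 and -3.37 ± 0.61. Without stretch replicate 7 the later values were 3.05 ± 0.65 for Areg, 2.87 ± 0.48 for Fosl1, 2.16 ± 0.42 for Ptgs2 and 4.0 ± 0.57 for Cdhr1. On the lower side they were -1.06 ± 1.08 for Fgf8, -0.13 ± 0.47 for Sfrp2 and -2.88 ± 0.65 for P2rx2. With or without that array, none of the 25 passed the test of the difference between the early and later effects.

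That test, over all genes, called 29 of 23312 (limma, 0.124%). In all 29 the early difference was under 1 unit (0.74 at most in size) and the later one at least 1.5 in size, 7 with a higher and 22 with a lower value in the later arrays. The count came to 0 when control replicate 1, control replicate 3 or stretch replicate 2 of the early arrays was left out, to 3 without control replicate 2 and to 17 without stretch replicate 1. It came to 112 without stretch replicate 7 of the later arrays.

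With BIRB796 in both groups, the same genes lay nearer to 0. The later set held 4 arrays of BIRB796 alone and 4 of stretch with BIRB796. There 8 of the 10 higher genes were above 0, with a median of 0.34 and none above 0.87, and 10 of the 15 lower genes were below 0, with a median of -0.13. Areg was 0.60 ± 0.43 higher, Fosl1 0.87 ± 0.33, Cdhr1 0.18 ± 0.38 and Nsg1 -0.19 ± 0.31, while Fgf8 was at -0.27 ± 0.84 and Sfrp2 at 0.50 ± 0.28. The early effect minus the effect under BIRB796 was 1.71 ± 0.65 for Areg, 2.05 ± 0.59 for Cdhr1 and -2.15 ± 0.42 for Sfrp2. The genes were chosen for a large early effect and the arrays differ in session, so these differences are given as values. Over all 23312 genes, 0 passed an adjusted p of 0.05 for that difference in limma (0%; 791 at an unadjusted p under 0.05), and 0 for stretch under BIRB796 itself (0%). A difference between the effects with and without the inhibitor was therefore not shown for any gene.

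**Figure D5:**
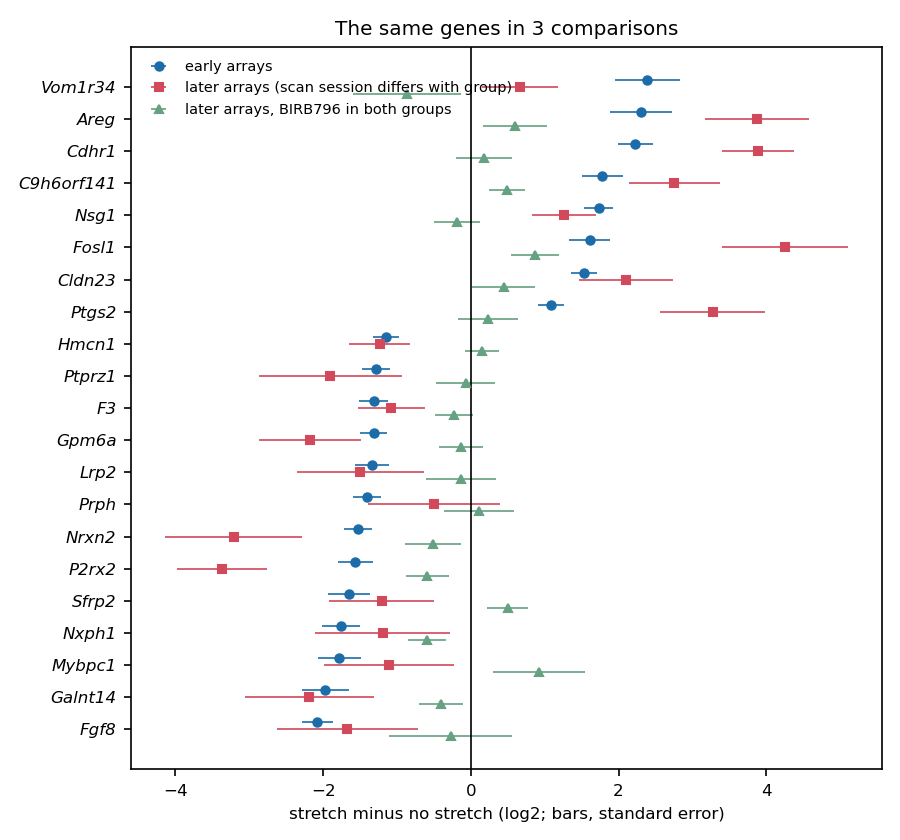
Stretch minus no stretch (log2, horizontal axis; bars are standard errors) in the early arrays (circles), the later arrays, where the scan session differs with the group (squares), and the later arrays with BIRB796 in both groups (triangles), for the same 21 genes. All later values without BIRB796 have the sign of the early ones when later stretch replicate 7 is included, as drawn, and the values with BIRB796 lie between -0.87 and 0.92.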

How the data were processed

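Per the file headers, Feature Extraction 10.7.1.1 produced the early arrays' linear spot intensity, with background subtraction inside each array and no normalization across arrays; the array design names build rn4. The authors' deposited table of log2 values served as an alternative. Flagged and control spots were left out, spots of a probe averaged, processed signals taken to log2 and each array's 75th percentile subtracted. A probe was kept if it was well above background on at least 3 of the 6 early arrays and had a value on all 6 (34 were lost to spot flags), and the probe with the highest mean stood for a gene. Of 30367 probes, 17514 were named by accession, 2886 by symbol and 664 by synonym through a RefSeq table (GRCr8), and 9303 kept the file's name. For 13 of the 75 genes discussed another probe passed the filter, and it gave the opposite sign for Atp2a2 and Col1a1; clearly smaller values are given beside the genes.

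The model was fitted with lmFit and eBayes of limma 3.58.1 (R 4.3.3), two-sided, with Benjamini-Hochberg adjustment over all genes, with slide and group as terms, checked on simulated data. Slides join equal replicate numbers, so slide and replicate blocks are the same. Deviations from the group means correlated within slides at 0.53, 0.17 and 0.59, and between unlike numbers at most at 0.31, 0.23 and -0.36. The slides, not these values, give the pairing. The differences from the later arrays and from stretch under BIRB796 were contrasts in 1 fit over the arrays concerned.

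Named genes are those with a symbol and the same sign on all slides that had the 10 smallest p or the 10 largest differences (p under 0.05) each way, the 2 smallest p each way in each of 36 lists, and 21 fixed genes; not all are reported. Of 917 listed genes, 871 were tested. The members and lists were chosen with earlier results of these data known. Figures were drawn from the same values.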

Additional observations from a re-analysis of the deposited data

Results flagged for a closer look

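The stretch effect of the early arrays differed from that of the later arrays for 29 genes by a test of the difference in limma, and for 112 without later stretch replicate 7. In the later set stretch cannot be told apart from scan session, slide and version of the extraction software, and the difference was not tested against these.

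For 9 of the genes discussed, the groups of 4 later arrays (control, BIRB796, stretch with BIRB796) were checked for an array far from the others, 27 checks of which chance flags about 1 in 20; groups of 3, which are all those of the early arrays, cannot be checked. Nppa in stretch with BIRB796 had a gap of 0.906 of the group's range: replicate 1 stood at 4.39 and the next array at 2.76. Fosl1 in the same group had a gap of 0.876, with replicate 1 at -3.09 and the next at -4.31. Prph in BIRB796 alone had a gap of 0.841, with replicate 3 at -1.65 and the next at -3.12.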

How the results depend on the processing

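The count of 0 genes at an adjusted p of 0.05 held in 20 of 21 alternatives; with each replicate left out it ran from 0 to 65, the latter without slide 2. At an unadjusted p under 0.05, 628 genes were higher; there were 298 with no replicate block, 413 after quantile normalization and 1385 with array weights, and 99 to 1668 with an array or slide left out. On the lower side, 457 became 699 after quantile normalization, 754 after normexp with quantile normalization, 703 with array weights and 289 with all 22 arrays in 1 fit, and 151 to 944 with an array or slide left out. The replicate block coincides with the slide block, so the planned exchange of one for the other gives the fit as reported. The number of lists with a median above that of all genes, 16, ran from 13 to 18.

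For the difference from the later arrays, 29 calls became 14 after quantile normalization and 59 with near-identical arrays kept apart, and 0 to 112 with an array left out, the highest count without later stretch replicate 7, an alternative chosen after seeing the data; the difference from stretch under BIRB796 gave 1 call after quantile normalization. The cause was not tested.

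Of 75 genes discussed, 8 turned sign in an alternative, none of them called. With an array or slide left out, list medians ran from -1.22 to -0.055 for macrophage, -0.66 to -0.13 for endothelial, -0.83 to -0.11 for complement, 0.055 to 0.80 for smooth muscle and 0.042 to 0.47 for cardiac load genes, and that of the sarcomere list changed sign in 3 of the 21 alternatives. With an array or slide left out, Acta1 ran from -0.17 to 1.14, Myh6 from -0.21 to 0.32, Myh7 from -0.057 to 0.47, Actc1 from -0.037 to 0.36, Atp2a2 from -0.33 to 0.33, Col1a1 from -0.15 to 0.20, Mapk14 from -0.048 to 0.088 and Mapk11 from -0.0022 to 0.56. Array weights gave -0.11 for Myh6, -0.16 for Atp2a2 and -0.0040 for Mapk14, and the mean over probes -0.0052 for Atp2a2 and -0.22 for Col1a1. Col1a1 and Mapk14 were at -0.015 and -0.011 with the array median, -0.046 and -0.073 after quantile normalization and -0.076 and -0.075 after normexp.

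The normexp alternative used the median spot signal, since the mean signal was present in only some of the files used here. Leaving out a slide leaves 1 residual degree of freedom, and the test then rests largely on the spread shared over genes. Signal over background limits the dimmest probes, Vom1r34 and Gnat2, and also Tek and Erbb4, which were not above background on every array.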
